A study of Mus musculus with 80 samples.

Results

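The circadian clock genes described here are Per1, Per2, Per3, Cry1, Cry2, Arntl, Clock, Nr1d1, Nr1d2 and Dbp, 10 of the 38827 gene symbols measured in subcutaneous white fat. They were chosen by name, and the feature with the highest mean stood for each symbol. Each of the 10 had 1 feature on the array, so no choice between features was needed, and none was lost, since no filter on low values was applied.

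The tissue came from male mice of 42 inbred strains, namely 40 BXD strains and the 2 parents of that family, DBA/2J and C57BL/6J. High fat mice ate Harlan 06414 from week 8 and chow mice ate Harlan 2018 throughout, and all were fasted from 6 pm to 9 am before they were killed, aged 29 weeks. There were 38 high fat arrays and 42 chow arrays, with 1 pool of about 5 animals for each strain and diet, so 38 strains were measured on both diets and BXD56, BXD60, BXD92a and BXD96 on chow alone. Each strain is 1 inbred genotype with no added transgene or knockout in the labels. The labels give no time of collection for single pools, so a strain's level and the time at which its pool was collected cannot be told apart. Since each strain and diet had a single pool, the p-values rest on how pools of unlike strains vary.

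In mammals the clock is a feedback loop of transcription. CLOCK and BMAL1, the product of Arntl, bind E-box sequences as a pair and switch on Per, Cry, Nr1d1, Nr1d2 and Dbp. The PER and CRY proteins in turn repress the CLOCK and BMAL1 pair, REV-ERBs encoded by Nr1d1 and Nr1d2 repress Arntl, and DBP passes the rhythm on through D-box sequences. In mouse tissues with a running clock, including white fat, Arntl mRNA is high at the time of day when Nr1d1 and Dbp mRNA are low.

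Promoter windows were read to show where the letters of these elements lie next to the genes whose levels moved together across strains. RefSeq windows of GRCm38.p6, from 250 bases before to 50 after each annotated start, were matched for 9 of the 10 genes. They gave 13 windows of 300 bases, and Per2 was the gene with no window. Both strands were searched for the E-box CACGTG, the related CACGTT, the D-box forms TTATGTAA and TTACGTAA, and AGGTCA, the core letters to which REV-ERB receptors bind. These 5 motifs do not overlap one another in the windows shown. The sequences are on the gene's strand, in lower case with each match in capitals, where AACGTG and TGACCT are CACGTT and AGGTCA on the opposite strand.

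Per3, at chr4:151044616-151044915 on the minus strand, is shown for its 2 D-box matches: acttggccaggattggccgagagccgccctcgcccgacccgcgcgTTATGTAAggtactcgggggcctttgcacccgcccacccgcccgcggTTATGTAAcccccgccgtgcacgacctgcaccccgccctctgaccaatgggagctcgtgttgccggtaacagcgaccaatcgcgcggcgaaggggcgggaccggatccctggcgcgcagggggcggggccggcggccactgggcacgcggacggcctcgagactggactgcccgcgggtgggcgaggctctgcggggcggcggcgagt
Cry1, at chr10:85185005-85185304 on the minus strand, is shown for its 2 E-box-like matches: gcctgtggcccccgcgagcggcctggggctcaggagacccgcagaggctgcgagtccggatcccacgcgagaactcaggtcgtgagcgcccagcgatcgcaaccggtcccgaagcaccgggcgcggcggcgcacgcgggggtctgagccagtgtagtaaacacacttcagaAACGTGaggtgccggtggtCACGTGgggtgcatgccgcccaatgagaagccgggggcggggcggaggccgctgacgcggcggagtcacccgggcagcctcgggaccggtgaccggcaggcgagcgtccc
Nr1d1, at chr11:98775328-98775627 on the minus strand, is shown for its CACGTT match: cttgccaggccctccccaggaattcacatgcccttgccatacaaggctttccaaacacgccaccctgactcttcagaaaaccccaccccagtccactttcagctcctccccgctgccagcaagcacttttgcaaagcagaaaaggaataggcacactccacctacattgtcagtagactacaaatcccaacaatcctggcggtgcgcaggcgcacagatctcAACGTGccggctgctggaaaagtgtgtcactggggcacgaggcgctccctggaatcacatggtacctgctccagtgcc
Per1, the first of its 2 windows, at chr11:69098699-69098998 on the plus strand, is shown for its E-box: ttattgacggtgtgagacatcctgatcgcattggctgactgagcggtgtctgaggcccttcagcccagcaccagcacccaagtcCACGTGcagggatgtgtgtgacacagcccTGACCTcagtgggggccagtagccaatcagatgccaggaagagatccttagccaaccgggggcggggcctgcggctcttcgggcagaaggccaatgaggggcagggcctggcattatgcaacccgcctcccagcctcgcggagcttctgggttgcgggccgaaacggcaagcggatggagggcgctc
Arntl, the second of its 2 windows, at chr7:113207261-113207560 on the plus strand, is shown for its AGGTCA match: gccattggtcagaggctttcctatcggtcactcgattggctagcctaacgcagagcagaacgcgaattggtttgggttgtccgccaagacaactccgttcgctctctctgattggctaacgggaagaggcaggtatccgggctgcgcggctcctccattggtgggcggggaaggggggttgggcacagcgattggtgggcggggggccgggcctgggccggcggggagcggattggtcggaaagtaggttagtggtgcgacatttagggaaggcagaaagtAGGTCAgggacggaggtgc

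CACGTG was present in Per1, starting at position -166 from the annotated start, and in Cry1 at -60, and 8.09% of 27025 genes with a window held it. CACGTT was present in Cry1 at -79, in Cry2 at -166 and in Nr1d1 at -28, against 5.44% of genes. TTATGTAA occurred 2 times in Per3, at -205 and -158, and in 1.11% of genes, while TTACGTAA was in none of the 9 genes and in 0.126% of all genes. AGGTCA was in Per1, Arntl, Clock and Nr1d2, against 18.1% of genes. The matches describe the letters of these short windows and do not show that a factor binds there.

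The deposited values are scores in which every array has a mean of 8 and an SD of 2 over all its features. Differences are therefore not folds and are given in scale units, each 0.5 SD of an array, and levels are not compared between genes. A change of any gene is relative to all other features on the array. Fat cell markers were high throughout, with Fabp4, a fatty acid carrier, between 15.1 and 15.8 and Adipoq, the hormone adiponectin, between 12.8 and 13.5 over the 80 arrays.

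The strain labels did not match between diets for a part of the strains. Over 100 genes with 2 clear levels across strains, none of them a clock gene, the chow array of 23 of the 38 strains correlated best with the high fat array of its own strain, at r between 0.749 and 0.958. For the other 15 strains (BXD51, BXD55, BXD63, BXD73, BXD75, BXD79, BXD80, BXD81, BXD83, BXD84, BXD85, BXD87, BXD89, BXD90 and BXD95) the r with their own array lay between -0.238 and 0.356. In 14 of these 15, all but BXD63, the chow array correlated with the high fat array of another strain at r between 0.799 and 0.914. Each of these 14 had a different best partner, and every partner was itself among the 14. With 50 or 200 genes 22 strains matched, since BXD43 then correlated best with BXD63. At 50 genes its r was 0.897 with BXD63 and 0.884 with its own array. Which of the arrays carries a label that does not belong to it was not tested, and no array was moved. Correlations within 1 diet do not use the match between diets. Results that pair the diets by strain are given for all 38 strains and for the 23 matched strains, a choice made after the data were seen.

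A few arrays stood apart in the clock genes. The high fat array of BXD63 was the lowest of 38 in Per3, Cry2, Clock and Dbp, and its mean of 10 skeletal muscle markers, at 14.209, was the highest of the high fat arrays. The chow array of C57BL/6J was among the lowest 3 of 42 in 5 of the 10 genes. Muscle markers ranged from 8.86 to 14.2 on high fat and from 8.65 to 14.7 on chow, and B cell markers from 8.11 to 11.6 on high fat and from 8.49 to 11.5 on chow. Fewer cells of a type and less RNA per cell cannot be told apart in such bulk tissue.

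Levels of the period genes, whose proteins repress CLOCK and BMAL1, overlapped widely between diets. Per1 ran from 10.06 over a median of 10.95 to 11.52 on high fat, against 9.93, 10.77 and 11.57 on chow. Per2 ran from 9.25 over 9.59 to 10.03 on high fat, against 9.00, 9.52 and 10.03 on chow. C57BL/6J had the lowest Per1 array of both diets. Per3 ran from 8.88 over 9.70 to 10.05 on high fat, against 8.98, 9.68 and 10.26 on chow.

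The cryptochromes, partners of the PER proteins, differed in how much they varied. Cry1 was the least variable of the 10, with an SD of 0.113 on high fat and 0.143 on chow, and ran from 8.92 over 9.11 to 9.41 on high fat, against 8.91, 9.11 and 9.57 on chow. Cry2 ran from 9.70 over 10.25 to 10.63 on high fat, against 9.58, 10.17 and 10.40 on chow. The top of the Cry2 range was higher on high fat than on chow, and the ranges still overlapped over most of their length.

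Of the activator pair, Arntl ran from 9.88 over 10.48 to 10.78 on high fat, against 9.999, 10.45 and 11.06 on chow. Clock ran from 11.73 over 12.34 to 12.91 on high fat, against 11.79, 12.37 and 12.85 on chow. Neither gene separated the diets.

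Nr1d1, the gene for REV-ERB alpha, was the most variable on chow. It ran from 11.04 over 11.64 to 12.35 on high fat, against 10.75, 11.99 and 12.70 on chow, with an SD of 0.319 on high fat and 0.468 on chow. Nr1d2, the gene for REV-ERB beta, ran from 10.37 over 10.87 to 11.24 on high fat, against 10.28, 10.80 and 11.35 on chow. Dbp, the D-box output factor, ran from 9.45 over 9.88 to 10.71 on high fat, against 9.11, 9.78 and 10.73 on chow. The SD over strains was larger than the median over all symbols (0.158 on high fat and 0.173 on chow) for every clock gene but Cry1.

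**Figure D1:**
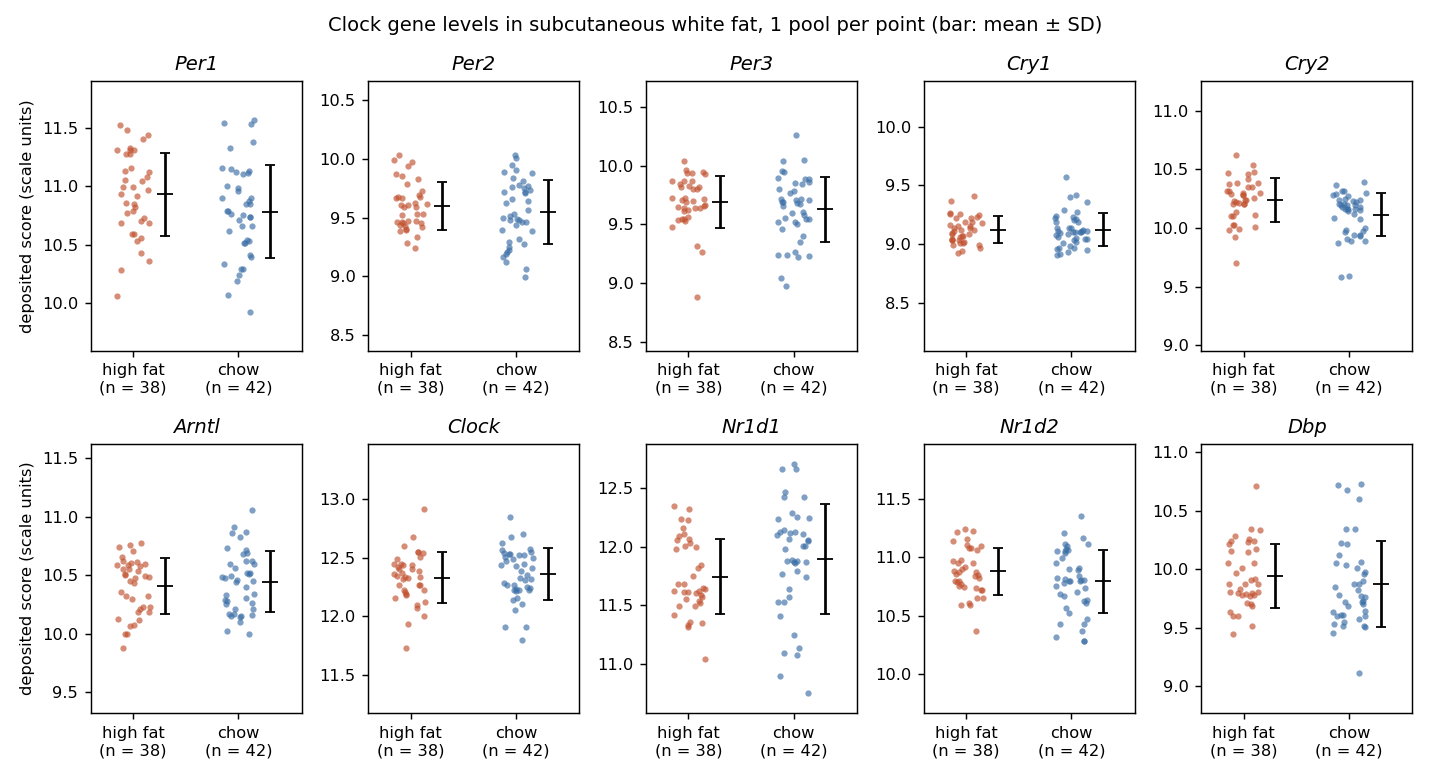
Deposited scores of the 10 clock genes (vertical axes, scale units, all spanning the same number of units) in every pool, on high fat (left, 38 arrays) and chow (right, 42 arrays). Points are pools of 1 strain, bars are means and SDs, and the diets overlap in every gene.

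Across strains the genes fell into sets that moved together or in opposite directions. Nr1d1, Nr1d2, Dbp and Per3 were high in the same pools on both diets, and Arntl and Cry1 were low in those with high Nr1d1, Nr1d2 and Dbp. Per2 went with Nr1d1, Nr1d2 and Per3 on both diets, and Cry2 with Nr1d1, Per2 and Per3. On chow Per2 with Dbp, Cry2 with Dbp and Cry2 with Nr1d2 missed the threshold (r = 0.32, 0.21 and 0.25). Of the 45 pairs, 29 passed the threshold on high fat, 21 of them positive, and 27 passed on chow, 19 of them positive (two-sided permutation tests with 100000 resamples, adjusted over the 45 pairs). In both diets 24 pairs passed with 1 sign, 17 positive and 7 negative, and 0 passed with opposite signs. These correlations are across pools of different strains, and the 2 genes of a pair share an array and its scaling.

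Nr1d1 and Nr1d2, which encode related receptors, had the highest r of the 45 pairs on high fat and the third highest on chow, after Per1 with Per2 and Per2 with Per3. Their r was 0.74 on high fat (rho 0.75) and 0.74 on chow (rho 0.69), each with a permutation p of 1e-05, the smallest that these permutations can give. Without the 2 arrays farthest from the median of Nr1d1 it was 0.70 on each diet. Among 38826 other symbols, Nr1d1 had the highest r of all with Nr1d2 on high fat and the second highest on chow.

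Dbp followed both REV-ERB genes. With Nr1d2 its r was 0.72 on high fat (rho 0.71) and 0.73 on chow (rho 0.77), each with a permutation p of 1e-05. Nr1d2 had the second highest r with Dbp of all other symbols on both diets. With Nr1d1 it was 0.65 on high fat and 0.68 on chow (adjusted p = 9.0e-05 and 1.0e-04).

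Dbp and Arntl ran in opposite directions. Their r was -0.63 on high fat (rho -0.61, permutation p = 3.0e-05) and -0.59 on chow (rho -0.61, permutation p = 4.0e-05). Without the 2 arrays farthest from the median of Arntl it was -0.58 on each diet. Of all other symbols, Arntl had the second most negative r with Dbp on both diets.

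Arntl was also lower where its repressors were higher. Its r with Nr1d2 was -0.48 on high fat and -0.37 on chow (adjusted p = 0.0060 and 0.031). Without the 2 arrays farthest from the median of Arntl it was -0.40 on high fat and -0.33 on chow. With Nr1d1 it was -0.37 on high fat and -0.35 on chow (adjusted p = 0.037 and 0.042). This pair missed the threshold on both diets without the 2 arrays farthest from the median of Arntl (r = -0.30 on high fat and -0.35 on chow).

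**Figure D2:**
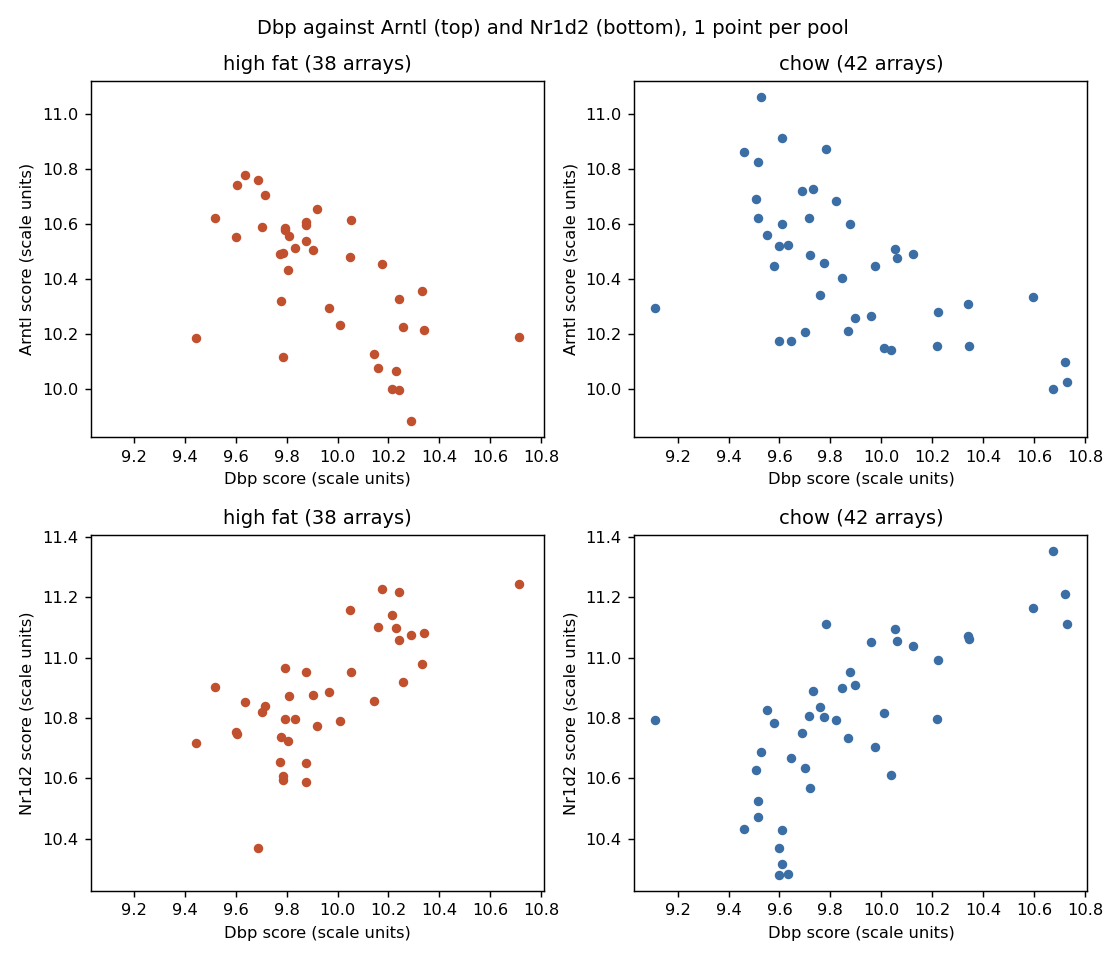
Arntl (top) and Nr1d2 (bottom) scores against the Dbp score, in scale units, on high fat (left, 38 arrays) and chow (right, 42 arrays), with 1 point per pool. Arntl falls along the Dbp axis (r = -0.63 on high fat and -0.59 on chow), and Nr1d2 goes up along it (0.72 on high fat and 0.73 on chow).

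Cry1 stood with Arntl rather than with the other repressors. Its r with Arntl was 0.37 on high fat and 0.56 on chow (adjusted p = 0.035 and 4.5e-04). On high fat it was 0.24 and missed the threshold without the 2 arrays farthest from the median of Cry1. With Dbp it was -0.44 on high fat and -0.41 on chow (adjusted p = 0.013 and 0.017). Its r with Nr1d1 was -0.53 on high fat and -0.34 on chow, and with Nr1d2 -0.43 on high fat and -0.39 on chow. Without the 2 arrays farthest from the median of Cry1, the r with Nr1d1 was -0.40 on high fat and -0.33 on chow. That with Nr1d2 was then -0.32 on high fat and -0.36 on chow. Cry2 behaved otherwise, with r of 0.63 on high fat and 0.45 on chow with Nr1d1 (adjusted p = 1.1e-04 and 0.0081). Without the 2 arrays farthest from the median of Cry2 these were 0.65 on high fat and 0.35 on chow. Cry1 and Cry2 had an r of -0.09 on high fat and 0.25 on chow, neither past the threshold.

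The period genes varied together. Per1 went with Per2 (r = 0.53 on high fat and 0.77 on chow, adjusted p = 0.0022 and 5.6e-05), and Per2 with Per3 (0.51 on high fat and 0.75 on chow, adjusted p = 0.0026 and 5.6e-05). Per1 with Per3 gave 0.30 on high fat and 0.50 on chow (adjusted p = 0.091 and 0.0017), past the threshold on chow alone, and the difference between the diets did not pass. Per3 went with Dbp, at 0.56 on high fat and 0.71 on chow, and with Nr1d1, at 0.64 on high fat and 0.72 on chow. Per2 with Nr1d1 gave 0.62 on high fat and 0.53 on chow. Per1 stood apart from Dbp, with an r of -0.07 on high fat and 0.06 on chow. It went with Cry2 at 0.45 on high fat and 0.65 on chow, and the high fat value fell to 0.36 without BXD63 and C57BL/6J (adjusted p = 0.051).

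There were 7 further pairs past the threshold in both diets. Per1 with Nr1d1 had 0.37 on high fat and 0.38 on chow. The rho of this pair on chow was 0.26, and its r on high fat was 0.24 with the tissue markers taken out. Neither of these passed (permutation adjusted p = 0.15 and 0.21). Per2 with Cry2 had 0.61 on high fat and 0.48 on chow. Per2 had 0.54 on high fat and 0.48 on chow with Nr1d2, and -0.43 on high fat and -0.37 on chow with Arntl. Without the 2 arrays farthest from the median of Per2, its r with Arntl was -0.46 on high fat and -0.28 on chow. Per3 had 0.70 on high fat and 0.50 on chow with Cry2, and 0.53 on high fat and 0.69 on chow with Nr1d2. Cry2 with Clock had 0.46 on high fat and 0.40 on chow. The high fat value was 0.22 without the 2 arrays farthest from the median of Cry2. The chow value was 0.12 with the tissue markers taken out (adjusted p = 0.50), and neither passed. Clock thus had 1 such pair, although it correlated with many genes outside the clock, since 9.63% of all symbols on high fat and 12.4% on chow had an r of at least 0.5 in size with it. For Dbp these shares were 0.713% on high fat and 0.167% on chow, and 4 of the other 9 clock genes were among them on each diet.

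No pair differed in r between the diets after adjustment, when the diet labels were swapped at random within strains. At an unadjusted p under 0.05 there were 2, Arntl with Clock (0.11 on high fat and 0.54 on chow, permutation p = 0.027) and Per1 with Cry1 (-0.22 on high fat and 0.17 on chow, permutation p = 0.044). In the 23 matched strains the counts were 0 after adjustment and 7 without it.

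**Figure D3:**
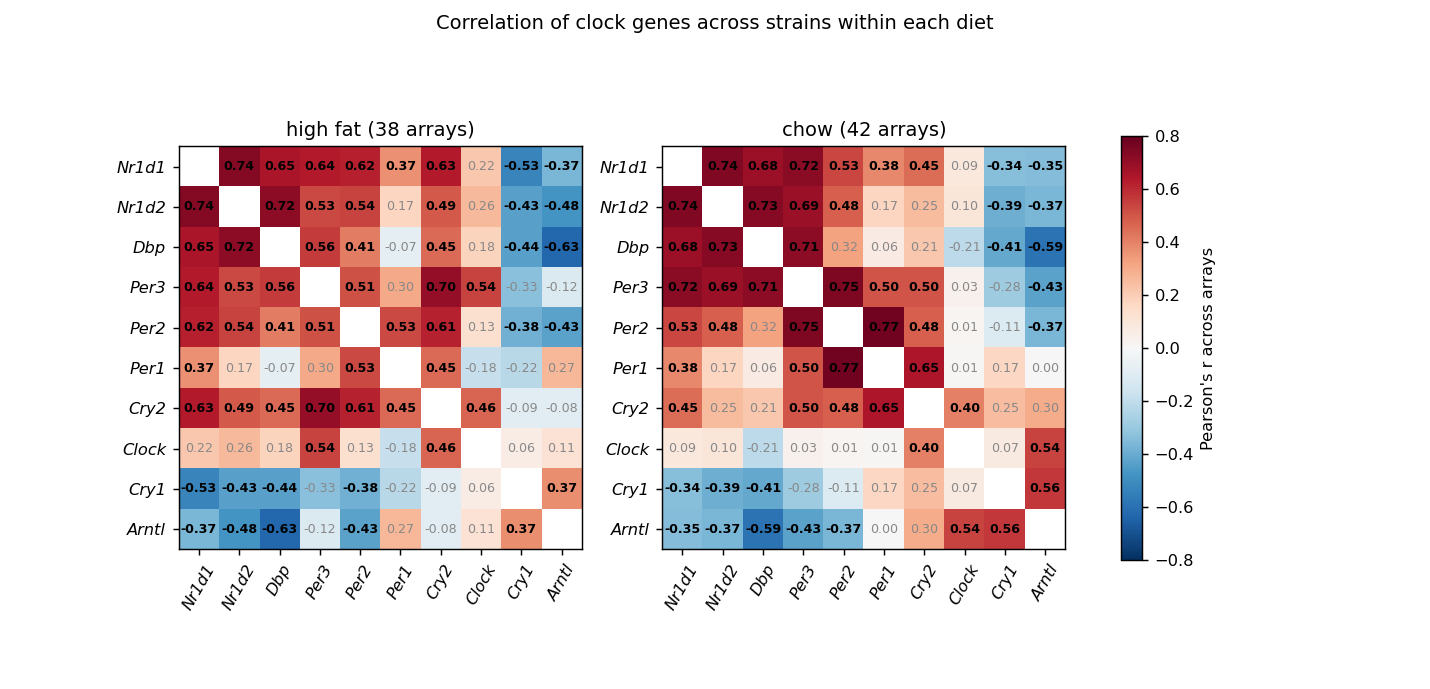
Pearson's r of each pair of clock genes across strains, on high fat (left) and chow (right), with colour from blue (negative) to red (positive) and bold numbers for pairs past the adjusted threshold. Both panels show a red block of Nr1d1, Nr1d2, Dbp, Per3 and Per2, and blue cells where these meet Cry1 and Arntl.

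The count of 24 was lower, at 16, when the 2 arrays farthest from the median of the pair's first gene were left out. The first gene is the one named earlier in the opening list, so arrays extreme in Dbp alone stayed in. Of these 16 pairs, 15 were among the 24. The count was 20 without BXD63 and C57BL/6J and 24 after the muscle, B cell and skin marker means were taken out of each gene, with 21 shared. A first principal component held 46.7% of the variance of the 10 genes on high fat and 44.4% on chow. Its largest weights were those of Nr1d1 (0.41), Nr1d2 (0.38) and Per3 (0.37) on high fat, and of Per3 (0.44), Nr1d1 (0.41) and Nr1d2 (0.38) on chow, with Arntl and Cry1 of opposite sign on both diets.

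Fat cell markers moved with several clock genes. The mean of 10 such markers had an r with Cry2 of 0.73 on high fat and 0.61 on chow and with Clock of 0.61 on high fat and 0.72 on chow. It was 0.67 on high fat and 0.32 on chow with Nr1d1, and 0.56 on high fat and -0.05 on chow with Dbp. T cell markers had an r with Cry2 of -0.59 on high fat and -0.61 on chow, and with Clock of -0.33 on high fat and -0.65 on chow. Endothelial markers had an r with Arntl of 0.18 on high fat and 0.69 on chow. The part of these cell types in the clock gene correlations was not tested beyond the muscle, B cell and skin markers.

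Genes with patterns most like a clock gene were sought over the 76 paired arrays with the diet means removed, leaving out the 10 clock genes themselves and predicted, clone and microRNA models. For Dbp the 3 highest were Bhlhe41 (r = 0.71), Tef (0.62) and Bhlhe40 (0.58), which are themselves clock-controlled transcription factors. For Per3 they were Sord (0.69), Tef (0.66) and Hipk3 (0.65), for Nr1d1 Katnal1 (0.76), Dab2ip (0.73) and Calcoco1 (0.71), and for Cry1 Rnf125 (0.56), Acly (0.52) and Prom1 (0.52). The most negative outside the 10 genes were Gprin3 (-0.48) for Dbp, Gngt2 (-0.48) for Per3, Hist2h2bb (-0.51) for Nr1d1 and Zfp449 (-0.44) for Cry1. Among the 100 symbols with the largest r in size, other clock genes numbered 5 each for Per3 and Dbp and 4 each for Nr1d1 and Cry1. These 4 genes are shown because they had the highest such counts. There were 3 each for Per2 and Nr1d2, 2 for Arntl, 1 for Per1, and 0 for Cry2 and Clock.

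Some relations outside the 10 genes belong to the known loop. Npas2, which can stand in for CLOCK as the partner of BMAL1, had an r with Arntl of 0.65 on high fat and 0.66 on chow. Tef, a D-box factor of the DBP family, had an r with Nr1d1 of 0.70 on high fat and 0.63 on chow, and with Arntl of -0.42 on high fat and -0.52 on chow. Nfil3, which represses at the D-box, had an r with Nr1d1 of -0.01 on high fat and -0.55 on chow, and the difference between the diets was not tested. These are descriptions over 38 and 42 arrays.

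Per1 is known to be induced by glucocorticoid hormone, and it varied with the genes of that response. With the mean of 10 glucocorticoid response genes its r was 0.70 on high fat (rho 0.68) and 0.75 on chow (rho 0.75). Without the 2 arrays farthest from the median it was 0.68 on high fat and 0.67 on chow. The 5 listed genes named here, chosen after their values were seen, were Klf9 (0.73 on high fat and 0.71 on chow), Sgk1 (0.71 on high fat and 0.57 on chow), Tsc22d3 (0.63 on high fat and 0.69 on chow), Mt2 (0.60 on high fat and 0.61 on chow) and Fkbp5 (0.59 on high fat and 0.60 on chow). The list had an r of -0.31 on high fat and -0.19 on chow with Dbp, of 0.21 on high fat and 0.55 on chow with Per2, and of 0.29 on high fat and 0.58 on chow with Cry2. Immediate-early genes, which respond to handling and stress, had an r with Per1 of 0.63 on high fat and 0.31 on chow, and their part in these values was not tested.

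**Figure D4:**
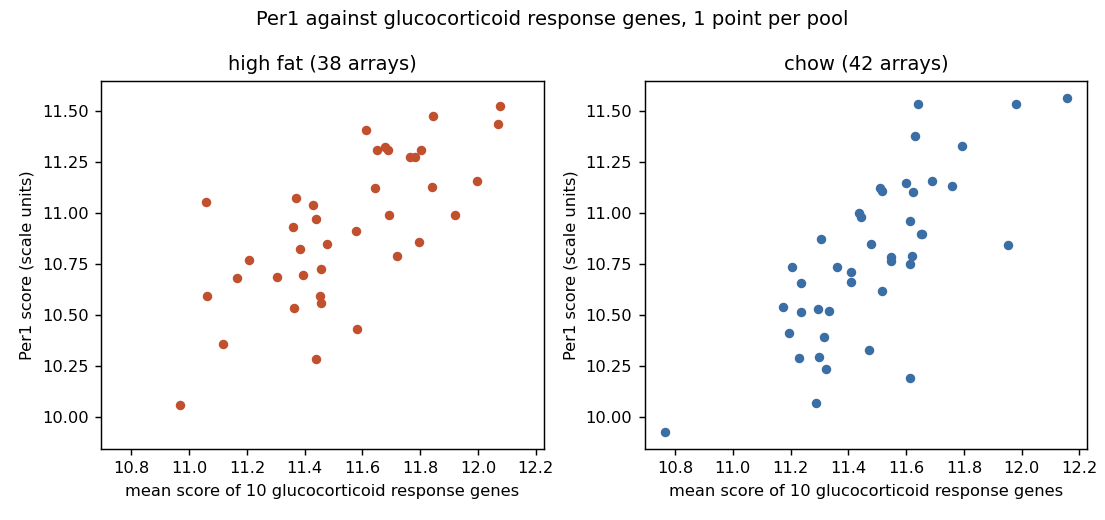
Per1 score (vertical, scale units) against the mean score of 10 glucocorticoid response genes (horizontal), on high fat (left, 38 arrays) and chow (right, 42 arrays), with 1 point per pool. Per1 goes up along the list mean on both diets (r = 0.70 on high fat and 0.75 on chow), and C57BL/6J is the lowest point of each panel.

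Whether strains differed in a way shared by both diets was asked with limma's moderated F test over strains, adjusted over all symbols. In the 38 strains 4 of the 10 genes passed, Per1, Dbp, Nr1d1 and Nr1d2, while 10.4% of all symbols did. In the 23 matched strains 6 of 10 passed, Per2 and Cry2 in addition, while 17.7% of all symbols did. The share of variance between strains, as intraclass correlation, was highest for Dbp in the matched strains, at 0.70 (F = 6.08, adjusted p = 6.1e-04), and for Per1 in all 38, at 0.54 against 0.52 for Dbp. In the matched strains it was 0.64 for Per1, 0.63 for Nr1d2, 0.55 for Cry2 and 0.53 for Nr1d1. In all 38 strains it was 0.42 for Nr1d2, 0.38 for Cry2 and 0.41 for Nr1d1. The median over all symbols was 0.190 in the matched strains and 0.146 in all 38. Clock was at the other end, with -0.29 in the matched strains and -0.17 in all 38.

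The order of strains was compared between the separate pools of the diets. In the matched strains the high fat and chow levels had an r of 0.71 for Dbp (rho 0.61, permutation p = 2.0e-04), 0.65 for Per1 (rho 0.66, permutation p = 8.0e-04) and 0.65 for Nr1d2 (rho 0.67, permutation p = 8.3e-04). The Dbp value was 0.50 without the 2 strains farthest from the median. The r was 0.59 for Nr1d1, 0.56 for Cry2, 0.53 for Per2 and 0.48 for Cry1. It was 0.39 for Per3 and 0.27 for Arntl, and neither passed (permutation adjusted p = 0.085 and 0.20). The median r over all symbols was 0.199. For Clock the r was -0.30 (permutation p = 0.17), and -0.04 without the 2 farthest strains. In all 38 strains the r was 0.55 for Dbp, 0.54 for Per1, 0.44 for Nr1d2 and -0.17 for Clock.

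**Figure D5:**
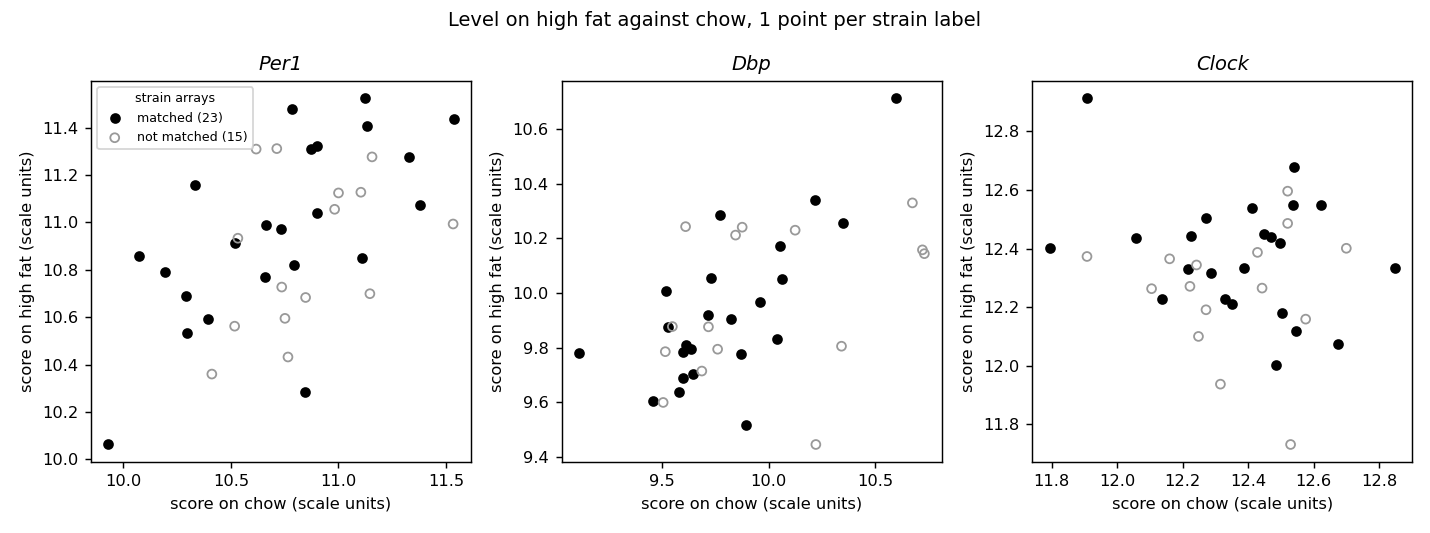
Score on high fat (vertical) against score on chow (horizontal), in scale units, for Per1, Dbp and Clock, with 1 point per strain label. Filled points are the 23 strains whose arrays matched between diets and open points the 15 that did not. Per1 and Dbp of the matched strains lie along a rising line (r = 0.65 and 0.71), and Clock does not (r = -0.30).

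Some strains held the ends of the range in both diets, among the 4 highest or 4 lowest of the 23 matched strains. They numbered 3 at the high end of Dbp and of Nr1d2, 0 at the low end of Clock, and 1 or 2 at the other ends. How many would fall there by chance was not tested. BXD45 was high in Dbp (10.71 on high fat and 10.60 on chow), in Nr1d2 (11.24 on high fat and 11.16 on chow) and in Nr1d1 (12.35 on high fat and 12.46 on chow). BXD61 was low in Nr1d1 (11.33 on high fat and 11.13 on chow) and in Nr1d2 (10.37 on both), and high in Cry1 (9.41 on high fat and 9.27 on chow). These 2 strains thus sat at opposite ends of the REV-ERB genes.

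Of the 4 end strains of Dbp 3 were also end strains of Arntl, at the opposite end, and BXD45 was not. BXD49 was low in Arntl (10.21 on high fat and 10.16 on chow) and high in Dbp (10.34 on high fat and 10.22 on chow). BXD100 was low in Arntl (10.23 on high fat and 10.16 on chow) and high in Dbp (10.26 on high fat and 10.35 on chow). BXD68 was high in Arntl (10.74 on high fat and 10.86 on chow) and low in Dbp (9.60 on high fat and 9.46 on chow). BXD44 and BXD66 were high in Per1, with 11.44 on high fat and 11.54 on chow in BXD44, and 11.41 on high fat and 11.13 on chow in BXD66.

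The parents differed in Cry2. DBA/2J had 10.42 on high fat and 10.18 on chow, against 9.99 on high fat and 9.58 on chow in C57BL/6J. The difference of DBA/2J minus C57BL/6J was 0.51 ± 0.14 (SE, 2 arrays for each parent), with an adjusted p of 0.016 by limma. It was 1 of the 10 genes past the threshold, against 11.7% of all symbols. In the fit of the 23 matched strains, which include both parents, the adjusted p was 0.0076. Nr1d2 passed there too, with a difference of 0.50 (adjusted p = 0.019, against 0.065 in the 38 strains). These were 2 of the 10 genes, against 15% of all symbols in that fit. With muscle, B cell and skin marker means as covariates no gene passed, and the adjusted p of Cry2 was 0.13.

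C57BL/6J was among the 4 lowest of the matched strains on both diets in Per1, Per2, Cry1, Cry2 and Nr1d2. For Per1, DBA/2J had 10.59 on high fat and 10.40 on chow, against 10.06 on high fat and 9.93 on chow in C57BL/6J, a difference that did not pass (0.50 ± 0.24 SE, adjusted p = 0.18 by limma). Nr1d1 was 12.09 on high fat and 11.87 on chow in DBA/2J, against 11.49 on high fat and 10.90 on chow in C57BL/6J, a difference of 0.79 ± 0.30 (SE, adjusted p = 0.082). For Clock, C57BL/6J was the highest of all high fat arrays at 12.91 and had 11.91 on chow, a change of 1.00 that was the largest of the 38 strains.

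The comparison of diets within strains asked whether the clock genes responded to long feeding with high fat. Per1 and Cry2 were higher on high fat and Nr1d1 was lower, 3 of 10 genes, while 61.2% of all symbols passed, 36.7% of them higher and 24.5% lower, as shares of all symbols tested. The median size of change was 0.063 scale units over the 10 genes and 0.107 over all symbols. Markers of other cells moved with diet too, since 9 of 10 skeletal muscle, 9 of 10 T cell, 6 of 10 B cell and 7 of 10 skin markers were lower on high fat and 8 of 10 macrophage, 7 of 10 endothelial and 5 of 10 fibroblast markers and 7 of 10 immediate-early genes were higher. Endothelial markers had an r with Cry2 of 0.48 on high fat and 0.46 on chow. Their part in the clock gene changes was tested only through the muscle, B cell and skin marker means as covariates.

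Per1 changed by 0.15 ± 0.36 (SD, n = 38 strains), was higher in 26 strains and had an adjusted p of 0.018 by limma. In the 23 matched strains the change was 0.23 ± 0.34 (SD, n = 23), higher in 18 strains (limma adjusted p = 0.0051). The call was lost without the strain block (adjusted p = 0.11), after quantile normalization (0.15) and with the tissue covariates (0.23).

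Cry2 changed by 0.12 ± 0.21 (SD, n = 38) and was higher in 31 strains (limma adjusted p = 0.0021). In the matched strains it was 0.16 ± 0.18 (SD, n = 23), higher in 20 (limma adjusted p = 9.2e-04). Quantile normalization lowered the change to 0.064 and ended the call (adjusted p = 0.079), and the tissue covariates did so as well (0.057, adjusted p = 0.25). Per1 and Cry2 passed in every one of the 38 fits that left out 1 strain.

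Nr1d1 fell by 0.16 ± 0.44 (SD, n = 38) on high fat and was lower in 25 strains (limma adjusted p = 0.045). The call held in 13 of the 38 fits without 1 strain, with adjusted p from 0.013 to 0.079, so most strains could end it. In the 23 matched strains the change was -0.06 ± 0.42 (SD, n = 23) and did not pass (limma adjusted p = 0.57).

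The other clock genes did not pass in the 38 strains. The difference of high fat minus chow was 0.09 for Nr1d2 (adjusted p = 0.064), 0.07 for Dbp, 0.06 for Per3, 0.05 for Per2, -0.007 for Cry1, -0.03 for Clock and -0.04 for Arntl, with adjusted p between 0.24 and 0.82 for the 6 after Nr1d2. In the 23 matched strains 5 genes were higher on high fat and 0 lower, against 32.5% and 22.2% of all symbols (54.7% in either direction). These were Per1, Cry2, Per3 (0.15, adjusted p = 0.013), Nr1d2 (0.12, adjusted p = 0.014) and Dbp (0.13, adjusted p = 0.018). Of the limma tests of the other 5 genes in those strains, the smallest adjusted p was 0.11, for Per2.

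The changes themselves varied together. Each change is a high fat score minus a chow score, so genes that correlate within the diets also tend to correlate in their changes. These values therefore cannot tell a shared response to diet from the correlations within each diet. Across the 38 strains 18 of 45 pairs of changes correlated past the threshold, 15 positive and 3 negative, and 10 pairs did in the 23 matched strains, 9 positive and 1 negative. The r of the changes of Per1 and Per2 was 0.71 in the matched strains (adjusted p = 0.0034) and 0.72 in all 38. For Per2 and Per3 it was 0.73 in the matched strains (adjusted p = 0.0034) and 0.63 in all 38. The 1 negative pair of the matched strains was Arntl with Dbp, at -0.66 (adjusted p = 0.0081), against -0.52 in all 38. Strains with a larger change of Dbp thus tended to have a lower or more negative change of Arntl.

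Of 18 further clock genes, 5 were higher and 5 lower on high fat by the same limma test, beside 36.7% higher and 24.5% lower of all symbols, with a median change of -0.016. Nfil3, the D-box repressor, changed by 0.19 over the 38 strains and was higher in 33 of them (limma adjusted p = 5.8e-05). Bhlhe41, a repressor of CLOCK and BMAL1, also changed by 0.19 and was higher in 27 (limma adjusted p = 3.1e-04). Fbxl21, for a subunit of a ubiquitin ligase that acts on CRY proteins, changed by -0.20, lower in 33 (limma adjusted p = 3.8e-07). These 3 genes passed in the 23 matched strains too. Fbxl21 had a low level, with means of 7.19 on high fat and 7.39 on chow, under the array mean of 8. It was among the lowest 40% of symbols that an alternative fit left out. Fbxw11, another ubiquitin ligase gene, was higher by 0.09, and Npas2 was lower with a change of -0.16 (adjusted p = 0.0047). Npas2 did not pass in the matched strains (-0.08, adjusted p = 0.32), and Fbxw11 did not after quantile normalization (0.04, adjusted p = 0.067) or with tissue covariates (0.05, adjusted p = 0.14).

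Of 8 rhythmic output genes, 4 were higher and 2 lower, beside the same 36.7% and 24.5% of all symbols. Cdkn1a, a cell cycle inhibitor, changed by 0.31, Tsc22d3, a glucocorticoid target also on the glucocorticoid list, by 0.24 and Wee1, a cell cycle kinase gene, by 0.22, with limma adjusted p of 3.5e-04, 3.0e-06 and 1.1e-05. Cdkn1a did not pass with the tissue covariates (0.14, adjusted p = 0.23). Ppargc1a, a coactivator, fell by 0.19 and Nampt, for an enzyme of NAD synthesis, by 0.11, and neither passed in the matched strains (adjusted p = 0.44 and 0.62). Between strains, Arntl2, a paralogue of Arntl, was the 1 of the 18 further genes with a strain effect in all 38 strains (intraclass correlation 0.71). Of all symbols 10.4% had such an effect. Between the parents, Bhlhe41 (0.80), Hlf (0.41) and Fbxw11 (0.38) were the 3 largest of 4 differences past the threshold among the 18, all higher in DBA/2J. Of all symbols 11.7% differed between the parents in either direction.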

How the data were processed

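The submitters' processing notes name RMA and Affymetrix Expression Console, with versions not given in the sources used here. The deposited values are a score, and all 80 arrays share a mean (8) and an SD (2), a rescaling that no source used here describes. It sets all arrays to one mean, so a gene's change is relative to all features. The design had assumed log2 values, and differences are given in scale units instead.

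Features with no symbol (26355) were set aside, which left 38827 symbols. The diet effect, strain effect and difference of the parents were fitted with limma 3.58.1 in R 4.3.3 on 76 arrays of 38 strains, with strain as a fixed block that pairs the diets by the label, and Benjamini-Hochberg adjustment over all symbols at 0.05. The limma and permutation steps were tested on simulated data. Pair correlations were computed in Python 3.11.15 with numpy 2.4.6 and permutation tests of 100000 resamples. Alternatives were no strain block, all 80 arrays with strain as a random block, quantile normalization, no symbols from the lowest 40%, robust regression, the median over features, tissue marker covariates, each strain left out, both parents left out, Spearman's rho and pairs without the 2 farthest arrays. Added after the data were seen were fits without BXD63 and C57BL/6J and fits of the 23 strains that matched in the check of labels.

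The 10 genes and the further lists (18 clock genes, 8 outputs, 10 glucocorticoid genes, 10 immediate-early genes and markers of cell types) were chosen with earlier results of these data known. Values of all 10 are given for the levels, the diet changes over all paired strains and the r between diets in the matched strains. Other comparisons give values for a part of the 10, picked with the results known. The intraclass correlation is not given for Per2, Per3, Cry1 and Arntl. In the main fit, the difference of the parents is given only for Per1, Cry2, Nr1d1 and Nr1d2. From the lists of clock and output genes, up to the 3 largest called in each direction were named, except 1 that is not reported here. For likeness, the 3 highest and 3 lowest r were taken for 4 genes with the most clock genes among their 100 largest r. RefSeq promoter windows of GRCm38.p6 were matched by symbol. The labels give no array batch, and 1 pool per strain and diet limits the precision.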

Additional observations from a re-analysis of the deposited data

How the results depend on the processing

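Of 1339 values of 120 results under the alternatives, 982 values of single genes and pairs and 198 of the main counts and comparisons kept their direction and their side of the threshold or stayed within the set range. For single genes and pairs 81 lost the threshold, 25 gained it and 12 changed sign, all of the 12 small changes that did not pass: the diet change of Per3 became -0.023 with tissue covariates, that of Cry1 0.0041 in robust regression, 0.018 with tissue covariates, 6.5e-04 in the matched strains and between -0.016 and 0.0038 with 1 strain left out, and that of Clock 0.0059 in the matched strains. The parental difference of Per3 became -0.058 and that of Clock -0.063 with tissue covariates, and the r of Clock between diets 0.043 without its 2 farthest strains, which are BXD63 and C57BL/6J. The count of clock genes higher on high fat (2) was 1 with no replicate block (strain left out of the fit), 1 with all 80 arrays, 0 after quantile normalization, 4 in robust regression, 0 with tissue covariates, 5 in the matched strains and 2 to 3 with 1 strain left out. The count lower (1) was 0 with no replicate block, 0 with all 80 arrays, 2 with tissue covariates (Nr1d1 and Clock, -0.16, adjusted p = 0.043), 0 in the matched strains and 0 to 1 with 1 strain left out. Without the lowest 40% of symbols, 9448 symbols were higher and 4614 lower, against 14257 and 9495, since fewer were tested. The count for the parents (1) was 2 without the lowest 40%, 0 with tissue covariates and 2 in the matched strains, and the pairs of changes (18) were 10 in the matched strains, where fewer strains were tested. For the rest the cause was not tested. The strain block pairs separate pools and ties the diets by labels that did not match in 15 strains, so results that use it rest on the 23 matched strains as well. Signal over background is not given in the deposited scores.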
